A study of Mus musculus with 48 samples.

Results

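Control jejunum at CT5, represented by 4 libraries, was set against control jejunum at CT1, represented by 4 libraries. The members were taken by name, as the count columns that carry the control tag and either of these times, and they make up 8 of the 47 libraries with a count column. The labels list 48 libraries, and 1 knockout library at CT9 was not analysed here. Circadian time (CT) counts the hours of an animal's own day, and both times fall in the early rest phase of a nocturnal species, 4 hours apart. The control genotype is bmal1fl/fl, in which both copies of the clock gene Bmal1 (symbol Arntl) are floxed, and the knockout used for comparison is Bmal1iec-/-, also sampled at CT5 and CT1 with 4 libraries each. All of these mice had been kept in constant darkness, and the study covered 6 times. The recombinase and its driver, the age and sex of the mice, their feeding, and whether the controls carry a recombinase are not given in the labels used here. Each library holds polyadenylated RNA of whole jejunal tissue, so epithelium, muscle, nerve, immune and connective tissue are measured together. The labels do not say that every library came from its own mouse, and p-values therefore measure the spread between these samples, which may be partly technical.

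The mammalian clock is a feedback loop of transcription. BMAL1 pairs with CLOCK or NPAS2 and binds E-boxes in the genes of its own repressors, the PER and CRY proteins, and of the nuclear receptors REV-ERBα and REV-ERBβ (Nr1d1 and Nr1d2). The REV-ERBs repress Arntl and other genes through elements shared with the activating ROR receptors, while the PAR bZIP factors DBP, TEF and HLF and their competitor NFIL3 act on D-boxes and carry the rhythm to output genes. In the jejunum, where most sugar, peptide and amino acid uptake takes place, transporters of the brush border are among the known rhythmic outputs.

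Total counts were 5124767 to 5612834 in the CT5 libraries and 4337218 to 5432426 in the CT1 libraries, so that 3 counts, the limit that an observed 0 allows, correspond to 0.534 to 0.585 CPM (counts scaled to library size) at CT5 and 0.552 to 0.692 CPM at CT1. Such floors cover counting error only. Mitochondrial genes took 4.18% to 5.03% of counts at CT5 and 4.34% to 5.16% at CT1. None of the 8 libraries stood apart in relative log expression (each gene's departure from its median over libraries). Elsewhere in the series 5 libraries did, 3 of them at knockout CT1, and because all 47 share 1 estimate of spread, results are also given without those 5. The enterocyte genes Vil1 (3086 ± 202 CPM at CT5 and 2700 ± 291 CPM at CT1) and Lct (2457 ± 359 CPM and 2087 ± 133 CPM, SD, n = 4 each) were well measured, the proximal-type marker Gata4 was present (148 ± 14.6 CPM and 120 ± 5.42 CPM), and the ileal genes Fabp6 and Fgf15 did not pass the filter on low counts.

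Of 15646 genes tested, 54 passed an adjusted p of 0.05 between CT5 and CT1 (0.345%), 40 of them higher at CT5 (0.256%) and 14 lower (0.0895%). Levels are CPM after scaling of the libraries, fold changes are on the log2 scale (CT5 minus CT1) with their standard error (SE), and adjusted p-values are Benjamini-Hochberg values of edgeR's quasi-likelihood test over all genes tested. Of the 54, 52 code for proteins, and 43 differed by at least 1.5-fold (0.275% of genes tested), 33 upward (0.211%) and 10 downward (0.0639%). The CT5 and CT1 libraries did not overlap for 53 of the 54, against 3.69% of all genes tested that lay wholly above and 4.73% that lay wholly below. The median absolute change among the 54 was 0.78 on the log2 scale, against 0.15 over all genes, whose median signed change was 0.00. Because the 54 were called from these same libraries, their separation and larger changes follow from the choice and are a description only. With 4 libraries against 4 the number of calls depended on the fit: 200 genes passed without the 5 libraries that stand apart, among them all 54, and 192 passed when only these 8 libraries were fitted. Leaving out single libraries gave 27 to 46, and the count was lower by more than 1.5 times without CT5 replicate 1 (31), CT5 replicate 3 (27), CT1 replicate 1 (28), CT1 replicate 2 (31) or CT1 replicate 3 (35).

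**Figure D1:**
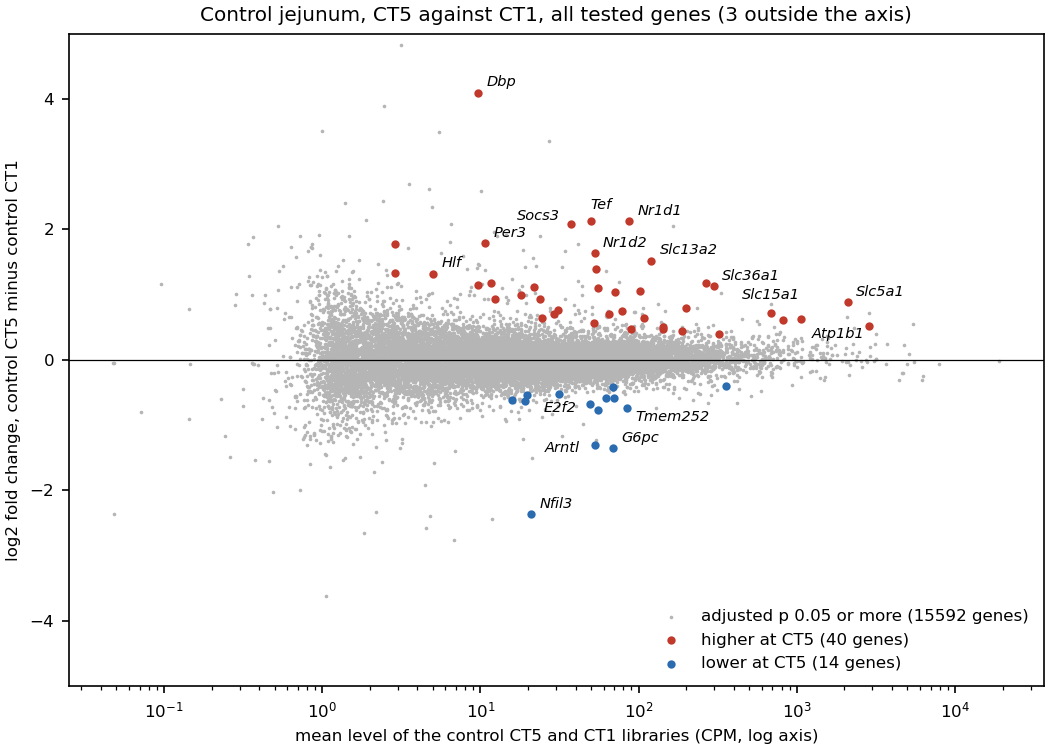
Each point is 1 of the 15646 genes tested, with its mean level over the control CT5 and CT1 libraries on a log axis (CPM) and its log2 fold change, CT5 minus CT1, on the vertical axis. The 40 genes higher at CT5 (red) and the 14 lower (blue) are drawn over the genes that did not pass (grey, 3 of them beyond the axis), with the clock genes Dbp (4.10) and Nfil3 (−2.36) at the extremes of the called genes.

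The largest rise and the largest fall among the called genes were those of clock genes. Of the 23 clock genes measured in 5 lists, 6 were higher at CT5 (Dbp, Nr1d1, Tef, Per3, Nr1d2 and Hlf), 3 were lower (Nfil3, Arntl and Npas2) and 14 did not pass. Over all genes tested, 0.256% were called higher and 0.0895% lower. The median over the 23 was 0.09, close to that of all genes, with members that moved in opposite directions. All 3 PAR bZIP activators rose and their competitor Nfil3 fell.

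Dbp encodes an activator at D-boxes. It stood at 18.3, 16.7, 21.7 and 16.3 CPM in the 4 CT5 libraries, against 1.56, 1.04, 0.647 and 0.836 CPM in the 4 CT1 libraries. Every CT5 library was above every CT1 library, and the CT1 values were close to the floor of 3 counts. The fold change was 4.10 (SE 0.28, edgeR adjusted p = 1.41e-14), a 17.1-fold rise within 4 hours. The end of Dbp overlaps that of Sphk2 on the other strand, and without a known strand setting shared reads cannot be told apart. Sphk2 averaged 87.4 ± 26.8 CPM at CT5 and 64.5 ± 9.28 CPM at CT1 and did not pass (edgeR adjusted p = 0.674). Tef, a second D-box activator, had 72.4, 78.9, 98.9 and 73.0 CPM at CT5, against 22.7, 16.2, 16.6 and 18.6 CPM at CT1. Its groups were again well apart (2.12, SE 0.14, edgeR adjusted p = 1.23e-14). Hlf, the third of this family, was lower in level, at 6.98, 5.16, 10.1 and 6.53 CPM at CT5 and 1.90, 3.82, 2.59 and 3.14 CPM at CT1 (1.32, SE 0.25, edgeR adjusted p = 0.00358). Its call ended without CT5 replicate 3 (edgeR adjusted p = 0.0608) or CT1 replicate 1 (0.0565). Nfil3, which represses through the same element, went the other way, with 4.53, 9.11, 6.82 and 6.72 CPM at CT5 and 36.5, 33.7, 35.8 and 34.7 CPM at CT1. The CT1 libraries lay within a narrow band, and the fall was 5.15-fold (−2.36, SE 0.24, edgeR adjusted p = 5.45e-09).

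The REV-ERB receptors rose together. Nr1d1 had 131, 133, 157 and 147 CPM at CT5, against 33.9, 24.3, 34.7 and 37.0 CPM at CT1 (2.13, SE 0.19, edgeR adjusted p = 2.37e-10). Nr1d2 had 63.8, 80, 80.7 and 94.4 CPM at CT5, against 32.7, 21.9, 24.6 and 23.0 CPM at CT1 (1.64, SE 0.23, edgeR adjusted p = 1.44e-05). The libraries of neither gene overlapped between the times. The end of Nr1d1 overlaps that of Thra on the other strand, with the same limit on shared reads, and Thra averaged 123 ± 5.25 CPM at CT5 and 110 ± 14.4 CPM at CT1 (edgeR adjusted p = 0.790). Of their opponents, the ROR receptors, Rora stood at 9.45 ± 1.56 CPM at CT5 and 8.83 ± 1.53 CPM at CT1 (edgeR adjusted p = 0.988).

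Of the 3 genes in the list of clock activators, Arntl and Npas2 fell. Arntl, which encodes BMAL1, had 30.0, 25.8, 30.9 and 34.8 CPM at CT5, against 71.4, 75.4, 78.5 and 76.5 CPM at CT1. The groups were far apart relative to their spread, and the fall was 2.48-fold (−1.31, SE 0.14, edgeR adjusted p = 1.29e-08). Npas2, the partner that can stand in for CLOCK, had 37.3, 45.6, 39.1 and 41.6 CPM at CT5, against 60.4, 63.6, 70.8 and 83.2 CPM at CT1 (−0.76, SE 0.16, edgeR adjusted p = 0.00865). The Npas2 call ended without CT5 replicate 1 (edgeR adjusted p = 0.0682), CT5 replicate 3 (0.0569) or CT1 replicate 4 (0.0786). Clock itself averaged 90.6 ± 8.05 CPM at CT5 and 112 ± 6.74 CPM at CT1, and its change did not pass (−0.30, SE 0.25, edgeR adjusted p = 0.894).

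Among the repressors of BMAL1, only Per3 passed of the 8 genes in that list. It had 14.9, 14.8, 19.5 and 17.1 CPM at CT5, against 4.84, 4.52, 4.10 and 5.65 CPM at CT1 (1.79, SE 0.23, edgeR adjusted p = 2.25e-06). Per2 had 35.8, 19.1, 26.2 and 19.1 CPM at CT5 and 10.9, 8.69, 9.49 and 16.7 CPM at CT1, so its libraries did not overlap either, but its fold change of 1.13 did not pass (SE 0.30, edgeR adjusted p = 0.106). Without the 5 libraries that stand apart it did (1.14, edgeR adjusted p = 0.0155). Per1 averaged 13.9 ± 5.86 CPM at CT5 and 7.23 ± 0.900 CPM at CT1 (0.93, SE 0.31, edgeR adjusted p = 0.332). The cryptochromes Cry1 (13.2 ± 3.09 CPM at CT5 and 16.6 ± 7.15 CPM at CT1) and Cry2 (20.8 ± 4.10 CPM and 20.7 ± 3.48 CPM) overlapped between the times, as did Bhlhe40 (80.6 ± 14.6 CPM and 72.2 ± 17.0 CPM), and Ciart and Bhlhe41 were near the floor at both times. Cipc, which encodes an inhibitor of CLOCK and BMAL1 and was in none of the lists, rose without overlap. It had 37.3, 39.2, 41.1 and 27.8 CPM at CT5, against 25.9, 21.2, 20.5 and 21.7 CPM at CT1 (0.70, SE 0.14, edgeR adjusted p = 0.00698, and 0.0552 without CT5 replicate 3).

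The 4 kinase and ubiquitin ligase genes of the clock did not pass. Fbxl21, which encodes a cryptochrome ligase subunit, came closest with 2.7 ± 0.657 CPM at CT5 and 5.05 ± 0.676 CPM at CT1 (−0.89, SE 0.26, edgeR adjusted p = 0.174), whereas Csnk1d and Csnk1e had fold changes of −0.02 and 0.08. None of 8 output genes that are rhythmic in several tissues passed. The deubiquitinase Usp2 averaged 36.1 ± 6.65 CPM at CT5 and 24.3 ± 2.66 CPM at CT1 (0.57, SE 0.15, edgeR adjusted p = 0.109), and Por, the electron donor of cytochrome P450 enzymes, 129 ± 17.1 CPM and 79.7 ± 11.1 CPM (0.70, SE 0.21, edgeR adjusted p = 0.202). Both passed without the 5 libraries that stand apart (Usp2 0.57, edgeR adjusted p = 0.00600, and Por 0.71, 0.0241).

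**Figure D2:**
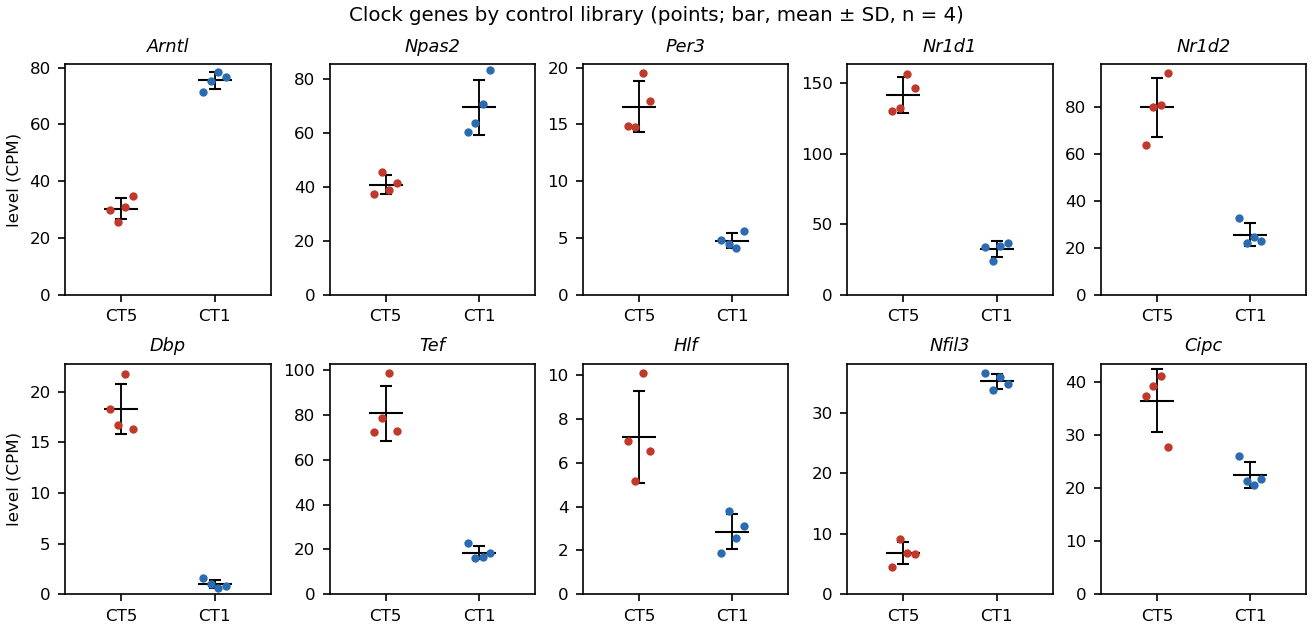
Levels (CPM, linear axis from 0) of 10 clock genes in each control library, CT5 on the left (red) and CT1 on the right (blue), with the mean and SD of 4 libraries. In each of the 10 panels the CT5 and CT1 points are separate, with Arntl, Npas2 and Nfil3 lower at CT5 and the others higher. Only genes called from these same libraries are drawn, so their separation follows from the choice. The 14 genes of the clock lists that did not pass are not drawn.

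Windows around the transcription starts of the called genes were searched for the letters of clock elements, on both strands, in the RefSeq promoter table for GRCm38.p6 (250 bases before to 50 after the annotated start). Matches are letters only and were not tested for binding. A window was found for 32 of the 40 genes higher at CT5, for 12 of the 14 lower and for 11002 of the genes tested. The E-box CACGTG was in 6 of the 32 (18.8%), in 2 of the 12 (16.7%) and in 11.3% of the 11002. The ROR element, which ROR and REV-ERB receptors share and whose match is in capitals in the Arntl window, was in 0 of the 32, in 1 of the 12 (8.33%) and in 0.173% of the 11002. The D-box TTANGTAA was in 1 of the 32 (3.13%), in 1 of the 12 (8.33%) and in 1.88% of the 11002. None of these motifs contains another. The windows of 3 clock genes whose levels are given above are shown 5′ to 3′ in the direction of transcription, with the matched letters in capitals: an E-box in Tef (chr15:81802423-81802722, plus strand), which rose, a pair of D-boxes in Per3 (chr4:151044616-151044915, minus strand), which rose, and the ROR element in Arntl (chr7:113207261-113207560, plus strand), which fell.
Tef: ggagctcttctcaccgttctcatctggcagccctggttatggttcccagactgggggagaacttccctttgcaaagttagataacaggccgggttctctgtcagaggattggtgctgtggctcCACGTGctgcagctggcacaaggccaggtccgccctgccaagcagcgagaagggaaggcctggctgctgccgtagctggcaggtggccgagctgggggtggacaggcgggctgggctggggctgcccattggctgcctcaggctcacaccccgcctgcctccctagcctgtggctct
Per3: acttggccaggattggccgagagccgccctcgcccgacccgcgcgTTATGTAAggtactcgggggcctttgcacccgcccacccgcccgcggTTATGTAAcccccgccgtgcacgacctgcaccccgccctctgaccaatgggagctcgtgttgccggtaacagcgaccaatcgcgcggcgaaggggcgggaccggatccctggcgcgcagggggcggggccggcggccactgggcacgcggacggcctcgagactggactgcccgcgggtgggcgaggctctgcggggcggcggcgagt
Arntl: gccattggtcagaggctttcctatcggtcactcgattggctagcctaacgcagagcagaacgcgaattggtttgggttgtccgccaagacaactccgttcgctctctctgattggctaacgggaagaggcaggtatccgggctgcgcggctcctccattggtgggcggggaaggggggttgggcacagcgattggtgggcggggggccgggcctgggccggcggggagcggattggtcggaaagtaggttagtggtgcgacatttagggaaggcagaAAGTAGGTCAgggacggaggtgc

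Among genes of sugar uptake, Slc5a1, Slc2a5 and Slc2a7 rose. Of the 15 genes in the list for sugar digestion and uptake, 3 rose, 1 fell and 11 did not pass, and 13 of the 15 had a positive fold change (median 0.24, against 0.00 and 50.7% positive over all genes). The shares called over all genes were 0.256% higher and 0.0895% lower. Slc5a1 (SGLT1) brings glucose and galactose into the enterocyte with sodium. It had 2851, 2474, 2873 and 2710 CPM at CT5, against 1403, 1417, 1651 and 1435 CPM at CT1, a rise of 1.85-fold with no overlap (0.89, SE 0.14, edgeR adjusted p = 9.77e-05). The fructose transporter gene Slc2a5 (GLUT5) had 141, 124, 150 and 134 CPM at CT5, against 66.9, 68.3, 68.0 and 60.9 CPM at CT1 (1.06, SE 0.17, edgeR adjusted p = 3.02e-04). Slc2a7 (GLUT7) is its neighbour on the same strand (Slc2a5 at chr4:150119283-150144169 and Slc2a7 at chr4:150148972-150168482 of mm10, 4802 bases between them) and had 85.1, 66.7, 84.6 and 65.2 CPM at CT5, against 35.8, 30.8, 40.3 and 34.3 CPM at CT1 (1.10, SE 0.17, edgeR adjusted p = 1.79e-04). All 3 held when any 1 of the 8 libraries was left out. Slc2a2 (GLUT2), the basolateral carrier of hexoses, averaged 447 ± 105 CPM at CT5 and 220 ± 25.8 CPM at CT1 (1.02, SE 0.26, edgeR adjusted p = 0.0776), which missed the threshold. The gene of the brush border enzyme Mgam averaged 3586 ± 437 CPM at CT5 and 2170 ± 304 CPM at CT1 (0.72, SE 0.18, edgeR adjusted p = 0.0665). Both passed without the 5 libraries that stand apart. G6pc, the catalytic subunit of glucose-6-phosphatase, which releases free glucose inside the cell, was the member that fell. It had 27.3, 37.8, 50.3 and 39.0 CPM at CT5, against 94.6, 115, 99.0 and 87.8 CPM at CT1 (−1.36, SE 0.25, edgeR adjusted p = 0.00203), and the call held without any 1 library.

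Of the carriers of peptides and amino acids, Slc36a1 and Slc15a1 rose. Of 19 genes of protein digestion and amino acid transport, 2 rose and 17 did not pass, and 18 of the 19 had a positive fold change (median 0.25), against 0.256% of all genes called higher and 50.7% with a positive fold change. Slc36a1 (PAT1), a proton-coupled carrier of small amino acids, had 456, 437, 368 and 377 CPM at CT5, against 190, 155, 202 and 203 CPM at CT1 (1.13, SE 0.19, edgeR adjusted p = 4.21e-04). Its groups were separated by more than their ranges, and the call held without any 1 library. Slc15a1 (PEPT1), the uptake route of di- and tripeptides, had 847, 749, 996 and 830 CPM at CT5, against 527, 479, 499 and 584 CPM at CT1 (0.71, SE 0.17, edgeR adjusted p = 0.0382). The libraries did not overlap, but the call ended on leaving out any 1 of the 8 libraries except CT5 replicate 2 (edgeR adjusted p = 0.0409 to 0.220). The aminopeptidase gene Anpep averaged 6408 ± 303 CPM at CT5 and 4378 ± 410 CPM at CT1, without overlap and without passing (0.55, SE 0.16, edgeR adjusted p = 0.211). Without the 5 libraries that stand apart Anpep (0.56) and Slc7a7 (0.37) of this list passed as well. Both also passed when only these 8 libraries were fitted, as did Slc7a8, and Anpep passed with the control libraries of all times. Summed over the list, levels were 17570 to 19705 CPM at CT5 and 13897 to 16105 CPM at CT1, and over the sugar list 16801 to 19543 CPM at CT5 and 13129 to 15466 CPM at CT1.

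Other membrane carriers and pumps were among the genes higher at CT5. Of 16 genes of ion and water transport 2 passed, both higher, against 0.256% of all genes called higher. Atp1b1, which encodes a subunit of the basolateral sodium pump, had 1358, 1187, 1402 and 1218 CPM at CT5, against 795, 848, 853 and 857 CPM at CT1 (0.62, SE 0.15, edgeR adjusted p = 0.0382). The libraries did not overlap, yet the call ended on leaving out any 1 of the 8 (edgeR adjusted p = 0.0518 to 0.186). Slc13a2, the sodium-coupled carrier of citrate and succinate, had 309, 91.8, 187 and 125 CPM at CT5, against 45.1, 58.9, 68.4 and 76.1 CPM at CT1 (1.52, SE 0.34, edgeR adjusted p = 0.0318). The CT5 libraries were widely spread, the call ended with these 8 libraries alone (edgeR adjusted p = 0.186), and it ended without CT5 replicate 1 (1.13, 0.267), CT5 replicate 3 (0.0758), CT1 replicate 1 (0.149), CT1 replicate 2 (0.128) or CT1 replicate 3 (0.0759). An antisense gene, Slc13a2os, overlaps it. The vitamin C carrier gene Slc23a1 averaged 98.4 ± 5.81 CPM at CT5 and 58.6 ± 5.14 CPM at CT1 (0.75, SE 0.18, edgeR adjusted p = 0.0439, and 0.0621 to 0.192 on leaving out single libraries). Abcb1a (P-glycoprotein), which pumps drugs and other foreign compounds back into the lumen, had 294, 351, 361 and 482 CPM at CT5, against 154, 163, 185 and 152 CPM at CT1 (1.18, SE 0.26, edgeR adjusted p = 0.0193). It was the 1 of 29 genes of xenobiotic metabolism that passed, against 0.256% of all genes called higher. Its call ended without CT5 replicate 3 (edgeR adjusted p = 0.0569), CT5 replicate 4 (0.11), CT1 replicate 1 (0.0935), CT1 replicate 2 (0.0940) or CT1 replicate 4 (0.0834). Of the 29, 25 had a positive fold change (median 0.19, against 0.00 over all genes). Without the 5 libraries that stand apart 3 of the 29 passed as higher, and 3 did when only these 8 libraries were fitted.

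**Figure D3:**
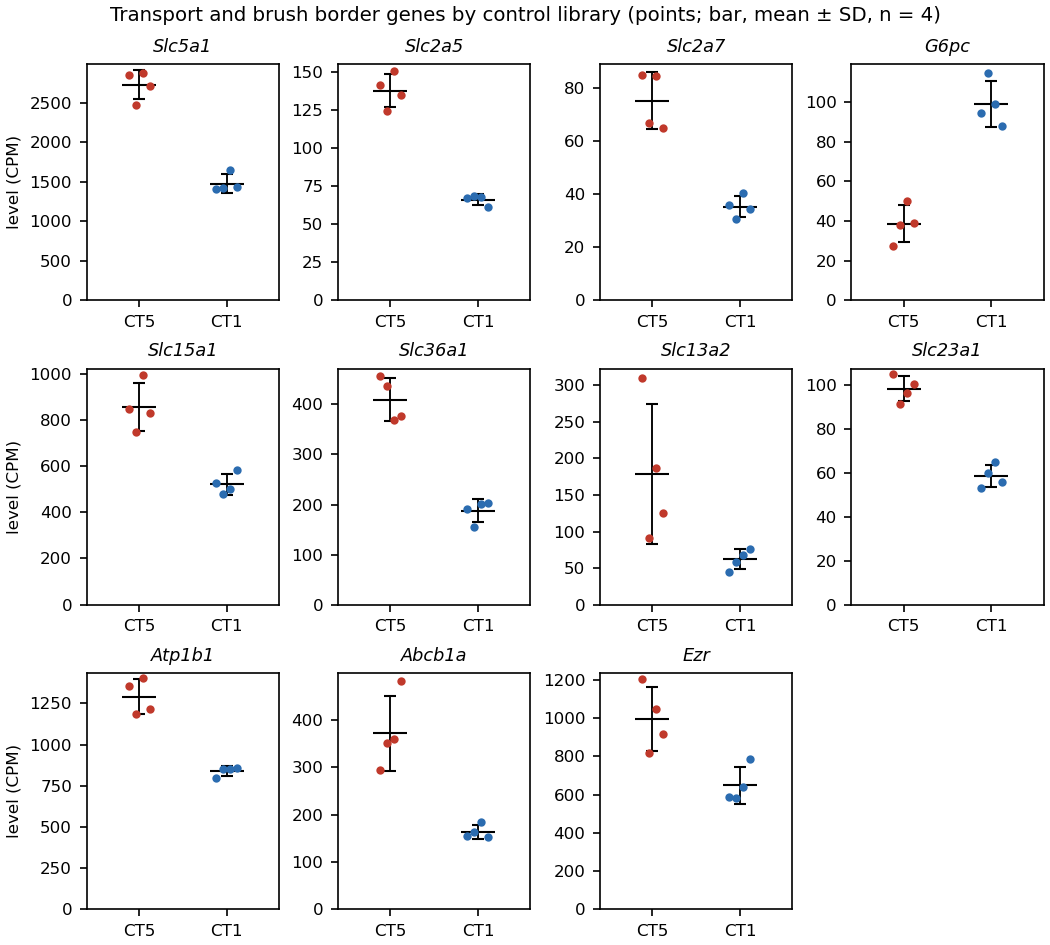
Levels (CPM, linear axes from 0) of 11 genes of transport, glucose release and the brush border in each control library, CT5 on the left (red) and CT1 on the right (blue), with the mean and SD of 4 libraries. In these 11 panels no CT5 point overlaps the CT1 range, G6pc is lower at CT5 and the other 10 are higher. All 11 were called from these same libraries, and their separation follows from that choice. The widest spread relative to the mean is that of Slc13a2 at CT5 (91.8 to 309 CPM).

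E-box letters were also present in the windows of 2 of these carriers and of Cipc, shown with CACGTG in capitals. The Slc5a1 window (chr5:33103969-33104268, plus strand) holds 1, the Slc36a1 window (chr11:55204090-55204389, plus strand) holds 2, and the Cipc window (chr12:86947093-86947392, plus strand) holds 1. Of all genes tested with a window, 11.3% hold at least 1, so such a match is common.
Slc5a1: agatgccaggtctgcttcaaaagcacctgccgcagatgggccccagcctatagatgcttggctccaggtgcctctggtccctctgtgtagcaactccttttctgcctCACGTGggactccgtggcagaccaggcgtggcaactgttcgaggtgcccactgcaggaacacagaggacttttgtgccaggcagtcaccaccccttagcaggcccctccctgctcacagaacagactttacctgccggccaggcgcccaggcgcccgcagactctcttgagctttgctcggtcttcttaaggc
Slc36a1: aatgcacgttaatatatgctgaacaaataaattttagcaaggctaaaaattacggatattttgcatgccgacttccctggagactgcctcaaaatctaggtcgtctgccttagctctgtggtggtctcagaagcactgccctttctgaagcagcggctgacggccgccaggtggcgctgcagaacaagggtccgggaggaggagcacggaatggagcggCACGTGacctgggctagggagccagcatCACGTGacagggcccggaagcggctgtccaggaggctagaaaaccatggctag
Cipc: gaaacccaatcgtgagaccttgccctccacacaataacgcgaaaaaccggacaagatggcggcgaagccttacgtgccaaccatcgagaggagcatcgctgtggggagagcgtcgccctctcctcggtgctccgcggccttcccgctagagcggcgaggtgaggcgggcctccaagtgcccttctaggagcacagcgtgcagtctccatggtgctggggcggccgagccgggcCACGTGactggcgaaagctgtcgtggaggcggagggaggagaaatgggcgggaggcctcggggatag

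Called genes outside these lists are described singly, and no shared function was tested for them. Socs3, an inhibitor of cytokine signalling through JAK and STAT, had 54.5, 102, 41.4 and 46.1 CPM at CT5, against 18, 10.1, 12.7 and 16.5 CPM at CT1 (2.09, SE 0.28, edgeR adjusted p = 9.49e-06). It held without any 1 library, but ended when only these 8 libraries were fitted (2.1, edgeR adjusted p = 0.0578). Gadd45b, a stress-inducible gene, averaged 13.4 ± 3.35 CPM at CT5 and 6.01 ± 1.19 CPM at CT1 (1.15, SE 0.27, edgeR adjusted p = 0.0382), and Il33, an alarm cytokine, 31.4 ± 4.74 CPM and 16.5 ± 2.46 CPM (0.93, SE 0.22, edgeR adjusted p = 0.0351). The Gadd45b call ended on leaving out any library except CT5 replicate 4 (up to 0.206), and that of Il33 on leaving out any 1 of the 8 (0.0542 to 0.189). Vipr1, a receptor for vasoactive intestinal peptide, averaged 364 ± 9.22 CPM at CT5 and 276 ± 15.5 CPM at CT1 (0.40, SE 0.10, edgeR adjusted p = 0.0410, and 0.0798 to 0.201 on leaving out single libraries).

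Tns4, a tensin of focal adhesions, had 63.9, 58.3, 89.0 and 98.2 CPM at CT5, against 31.8, 29.9, 26.1 and 30.1 CPM at CT1 (1.39, SE 0.23, edgeR adjusted p = 4.21e-04). Ank3, which ties membrane proteins to spectrin, had 88.1, 79.1, 108 and 104 CPM at CT5, against 48.3, 48.0, 49.8 and 39.1 CPM at CT1 (1.03, SE 0.17, edgeR adjusted p = 2.28e-04), and the ephrin receptor gene Epha1 averaged 131 ± 12.8 CPM and 83.6 ± 6.57 CPM (0.65, SE 0.11, edgeR adjusted p = 8.69e-04). These 3 held without any 1 library. The locus of Epha1 overlaps that of Zyx, which averaged 129 ± 23.0 CPM at CT5 and 82.8 ± 11.9 CPM at CT1. Zyx did not pass (0.64, edgeR adjusted p = 0.0577), and without a known strand setting shared reads cannot be told apart. Ezr, encoding ezrin, which anchors actin in the microvilli, had 1203, 820, 1046 and 916 CPM at CT5, against 586, 582, 641 and 787 CPM at CT1. Its groups came close to touching (0.62, SE 0.15, edgeR adjusted p = 0.0393), and the call ended without any 1 library other than CT5 replicate 2 or CT1 replicate 4 (up to 0.235). Further genes higher at CT5 were Lrrc75b (1.78), Gm45606 (1.33), the cytochrome P450 gene Cyp2u1 (1.18), 0610005C13Rik (1.11), Ccdc116 (0.99), the metalloprotease gene Adamts15 (0.93), the aspartoacylase gene Aspa (0.79), Eepd1 (0.77), Entpd7 (0.71), Spsb1 (0.64), Tob2 (0.57), Pacsin2 (0.50), Anxa7 (0.47), the RNA-binding protein gene Rbm47 (0.47) and Nat8f4 (0.45). Of these, Lrrc75b, 0610005C13Rik and Anxa7 held without any 1 library. The calls of Gm45606, Cyp2u1, Aspa, Eepd1, Entpd7 and Spsb1 ended in 7 of the 8 fits without 1 library, and those of the others in 1 to 6. Gm45606 was the 1 called gene whose libraries overlapped, at 1.66 to 5.85 CPM at CT5 and 1.46 to 1.94 CPM at CT1. It lies within Slc43a2, and reads from overlapping genes cannot be told apart where the strand setting of the counting is not given.

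Among the genes lower at CT5 was E2f2, a transcription factor of the cell cycle. It had 37.5, 38.2, 33.0 and 43.0 CPM at CT5, against 55.5, 63.1, 65.4 and 57.7 CPM at CT1 (−0.67, SE 0.13, edgeR adjusted p = 0.00457, and 0.0522 without CT5 replicate 3). None of the 28 genes in the cell cycle list passed, although 23 were lower at CT5, with a median of −0.32 (0.00 over all genes) and 16 with an unadjusted p under 0.05 (7.09% of all genes tested). Among them were the replication licensing gene Cdc6 (6.89 ± 0.485 CPM at CT5 and 10.9 ± 0.891 CPM at CT1, −0.66, edgeR adjusted p = 0.174), the topoisomerase gene Top2a (165 ± 21.5 CPM and 224 ± 20.7 CPM, −0.44, 0.277) and Mki67 (196 ± 48.7 CPM and 279 ± 37.1 CPM, −0.51, 0.319). Top2a and Ccnb1 passed without the 5 libraries that stand apart, and 5 members (Top2a, Mcm5, Mcm7, Cdc6 and Bub1) passed when only these 8 libraries were fitted. In whole tissue, fewer dividing cells and less of these RNAs per cell cannot be told apart. Further genes lower at CT5 were Tmem252 (−0.74, SE 0.14, edgeR adjusted p = 0.00279, and 0.0514 without CT5 replicate 1), Qrsl1 (−0.62), Aagab (−0.59), St5 (−0.59), Mycl (−0.53), the chromatin subunit gene Actl6a (−0.53), the retinol dehydrogenase gene Rdh11 (−0.41) and the RNA-binding protein gene Hnrnpa3 (−0.40). Aagab, with 49.3 ± 2.84 CPM at CT5 and 74.4 ± 8.08 CPM at CT1 (SE 0.08, edgeR adjusted p = 1.66e-05), and St5, with 56.0 ± 5.57 CPM and 84.3 ± 5.13 CPM (SE 0.11, 0.00219), held without any 1 library. The Hnrnpa3 call ended in each of the 8 fits without 1 library, that of Rdh11 in 7, Qrsl1 in 6, Mycl in 4 and Actl6a in 3.

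Most other functions of the jejunum had no gene that passed. That was so for the 24 genes of fat absorption and lipoproteins (median 0.05, lowest edgeR adjusted p = 0.217, Abca1), the 25 of sterol synthesis (median −0.10, 0.640, Pmvk), the 12 of fatty acid synthesis (median 0.11, 0.589, Fads1) and the 20 of fatty acid oxidation (median 0.08). It was also so for the 21 of endoplasmic reticulum folding (median 0.04, 0.191, Trib3), the 13 heat shock genes (median −0.05, 0.314, Hspd1), the 15 immediate early genes (median 0.10, 0.654, Myc), the 15 fasting and autophagy genes (median 0.21, 0.621, Bnip3) and the 11 glucocorticoid-responsive genes (median 0.19, 0.332, Per1). None of the 5 measured genes of bile acid handling passed, although 4 had a positive fold change (median 0.44). Sums over that list did not overlap (373 to 497 CPM at CT5 and 297 to 352 CPM at CT1). In that list 1 gene passed as higher without the 5 libraries that stand apart, and 1 when only these 8 libraries were fitted. The cold-inducible genes Cirbp (35.3 ± 4.34 CPM at CT5 and 35.7 ± 4.55 CPM at CT1) and Rbm3 (112 ± 7.16 CPM and 111 ± 3.47 CPM) differed by less than the spread between libraries. Among the housekeeping sets, 0 of 81 cytosolic ribosomal, 0 of 92 respiratory chain and 0 of 13 mitochondrially encoded genes passed. Without the 5 libraries that stand apart Abca1 (1.20), the ER stress gene Herpud1 (0.45) and Ndufaf5 of the respiratory chain list (−0.71) passed as well. Ndufaf5 also passed when only these 8 libraries were fitted. In that fit Creb3l3 of the fat absorption list passed as higher, and the heat shock genes Hsp90aa1 and Hspd1 as lower. Pdia6 and Dnajb9 of endoplasmic reticulum folding passed there too, 1 higher and 1 lower.

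Marker lists of the epithelial, immune, muscle, nerve, connective and neighbouring cell types had no member that passed, and their summed levels were mostly shared by both times. Sums over the enterocyte markers were 20963 to 23651 CPM at CT5 and 19573 to 22170 CPM at CT1, and sums over the goblet cell markers 6440 to 10536 CPM and 6668 to 9776 CPM. The 11 Paneth cell genes all had negative fold changes (median −0.31), with sums of 14829 to 17983 CPM at CT5 and 17878 to 22918 CPM at CT1 that overlapped slightly. Sums over the stem cell markers were 1280 to 1474 CPM at CT5 and 1462 to 1672 CPM at CT1, and those over the cell cycle list did not overlap (1201 to 1580 CPM and 1583 to 1699 CPM). Markers of T cells, B cells, MHC class II presentation, interferon response, smooth muscle, enteric neurons and fibroblasts overlapped in their sums. Those of myeloid and mast cells did not (299 to 325 CPM at CT5 and 257 to 289 CPM at CT1), nor did those of adipocytes, at 148 to 244 CPM at CT5 and 79.0 to 133 CPM at CT1. All 8 adipocyte genes had positive fold changes (median 1.08), among them Adipoq with 11.7 ± 3.79 CPM at CT5 and 3.80 ± 1.80 CPM at CT1, and none passed (lowest edgeR adjusted p = 0.487, Cidec). When only these 8 libraries were fitted, 2 of the 7 adipocyte genes then tested passed, Adipoq and Plin1, both higher at CT5. Of the other marker lists, Csf1r (myeloid cells) passed in that fit and without the 5 libraries that stand apart, Creb3l3 (villus tip) in that fit and Gata4 (enterocytes) without the 5, each higher at CT5. The part of adipose tissue in the genes higher at CT5 was not tested. Of the 9 pancreatic acinar genes 7 did not pass the filter, and Clps and Cela1 overlapped between the times.

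The place of CT5 and CT1 in the day was read from the control means at all 6 times, as a description. Of the 40 genes higher at CT5, the mean was highest at CT9 in 23, at CT13 in 11 and at CT5 itself in 6, and it was lowest at CT1 in 24, at CT21 in 14 and at CT17 in 2. Of the 14 lower genes, the mean was highest at CT21 in 7, at CT1 in 5 and at CT9 or CT13 in 1 each, and lowest at CT9 in 8, at CT5 in 4 and at CT13 in 2. CT5 was thus for most of these genes a point on a slope and not its end. The control CT21 means include replicate 1, which is among the 5 libraries that stand apart, and the counts were not repeated without it. Dbp averaged 1.02 ± 0.392 CPM at CT1 and 18.3 ± 2.47 CPM at CT5, then 77.2 ± 17.1 CPM at CT9, 27.0 ± 7.19 CPM at CT13, 3.41 ± 0.719 CPM at CT17 and 1.89 ± 0.323 CPM at CT21 (SD, n = 4 each). Nr1d1 was already at its highest mean at CT5 (142 ± 12.5 CPM), close to that at CT9 (135 ± 38.2 CPM), from which it differed by less than the spread between libraries. Slc5a1 averaged 1476 ± 117 CPM at CT1 and 2727 ± 183 CPM at CT5, then 4380 ± 428 CPM at CT9, 3748 ± 28.3 CPM at CT13, 1944 ± 232 CPM at CT17 and 1548 ± 130 CPM at CT21. G6pc ran the other way early in the day, with 99.1 ± 11.5 CPM at CT1, 38.6 ± 9.38 at CT5 and 16.5 ± 10.2 at CT9, before its highest mean of 148 ± 12.9 CPM at CT13.

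**Figure D4:**
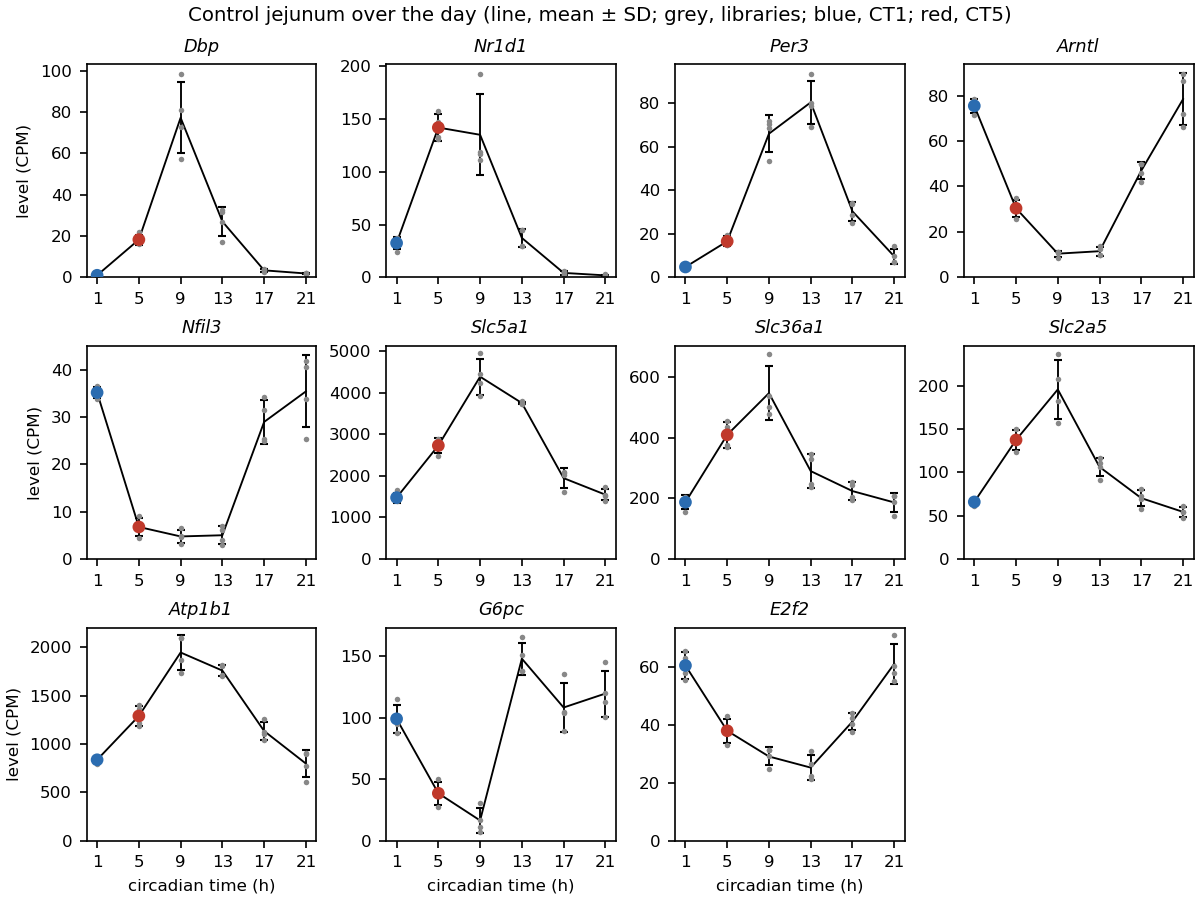
Levels (CPM, linear axes from 0) of 11 genes called between CT5 and CT1, across the 6 times of the control series, with single libraries in grey, the mean and SD of 4 libraries as a line, and the CT1 and CT5 means in blue and red. Dbp, Slc5a1, Slc36a1, Slc2a5 and Atp1b1 reach their highest mean at CT9, Per3 at CT13 and Nr1d1 at CT5, whereas Arntl, Nfil3 and E2f2 are highest at CT21 and G6pc at CT13. The CT21 means include 1 library that stands apart.

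The same interval was measured in the knockout. Of the 4 knockout CT1 libraries, 3 stand apart. With all libraries 2264 genes passed between knockout CT5 and knockout CT1 (14.5%), but without the 5 libraries that stand apart, which leaves 1 knockout CT1 library, 1 gene did (Nr1d1, 2.80, edgeR adjusted p = 0.0354). That single library is assumed to vary like the other groups. Of the 54 genes called in control, 15 passed in the knockout in the same direction, 13 of the 40 higher (background 5.6%) and 2 of the 14 lower (background 8.87%). The median fold change of the 40 was 0.26 in knockout and 0.96 in control, and that of the 14 was −0.17 in knockout and −0.62 in control. The 2 comparisons share no libraries, but the 54 were chosen in control, so that their larger changes there are a description only.

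The difference between the genotypes was itself tested for every gene, and 10 genes passed (0.0639%), 6 of them among the 54. Dbp had 4.46, 5.08, 5.09 and 5.71 CPM at knockout CT5 and 1.89, 2.32, 3.47 and 2.09 CPM at knockout CT1, a smaller rise than in control (difference −3.04, SE 0.41, edgeR adjusted p = 1.55e-05). Tef averaged 49.2 ± 4.22 CPM at knockout CT5 and 36.7 ± 3.69 CPM at knockout CT1 (difference −1.70, SE 0.19, edgeR adjusted p = 5.32e-07). Arntl, the targeted gene, did not fall in the knockout, with 31.4 ± 2.33 CPM at CT5 and 27.3 ± 7.15 CPM at CT1 (difference 1.51, SE 0.20, edgeR adjusted p = 1.15e-05). At CT5 the Arntl level in knockout (31.4 ± 2.33 CPM) and in control (30.4 ± 3.72 CPM) differed by less than the spread between libraries, and a count over the whole gene does not show which exons were present. Nfil3 stayed at 31.0 ± 4.51 CPM at knockout CT5 and 31.6 ± 8.06 CPM at knockout CT1 (difference 2.34, SE 0.32, edgeR adjusted p = 2.02e-05). Slc2a5 averaged 62.9 ± 8.06 CPM at knockout CT5 and 76.7 ± 27.8 CPM at knockout CT1 (difference −1.35, SE 0.25, edgeR adjusted p = 0.00666), and 0610005C13Rik, an antisense transcript that overlaps Bcat2, 18.9 ± 2.47 CPM and 19.1 ± 4.56 CPM (difference −1.13, SE 0.21, edgeR adjusted p = 0.0102). Without the 5 libraries that stand apart 4 differences passed, those of Tef (−1.77), Arntl (1.19), Nfil3 (2.74) and 0610005C13Rik (−1.15), while those of Dbp (−2.80, edgeR adjusted p = 0.135) and Slc2a5 (−0.90, 0.216) did not. The other 4 of the 10 genes, Carf (2.01), Asxl1 (0.90), Plut (−2.11) and Rbm20 (2.45), did not pass in control. Without those libraries their differences were 2.05, 0.70, −1.76 and 2.53 and did not pass (edgeR adjusted p = 0.302, 0.237, 0.466 and 0.491).

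The REV-ERB genes rose in the knockout too, at lower levels than in control. Nr1d1 averaged 18.3 ± 2.07 CPM at knockout CT5 and 2.71 ± 0.481 CPM at knockout CT1 (2.74, SE 0.26, edgeR adjusted p = 3.45e-09), and Nr1d2 21.4 ± 2.81 CPM and 4.02 ± 2.43 CPM (2.41, SE 0.29, edgeR adjusted p = 1.73e-06). Per3 averaged 9.89 ± 2.64 CPM at knockout CT5 and 5.08 ± 1.73 CPM at knockout CT1 (0.97, SE 0.24, edgeR adjusted p = 0.00764). These p-values rest on a knockout CT1 group in which most libraries stand apart. Without the 5 libraries that stand apart, which leaves 1 knockout CT1 library, the changes were 2.80 for Nr1d1, 1.84 for Nr1d2 and 0.60 for Per3. Among the transporters, Slc36a1 averaged 252 ± 49.8 CPM at knockout CT5 and 159 ± 35.3 CPM at knockout CT1 (0.66, SE 0.19, edgeR adjusted p = 0.0181). Slc5a1 did not pass with all libraries (0.26, SE 0.14, edgeR adjusted p = 0.177). Without the 5 libraries that stand apart the knockout changes were 0.51 for Slc36a1 and 0.50 for Slc5a1. For these 5 genes the difference between the genotypes did not pass, which does not show that they changed alike.

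**Figure D5:**
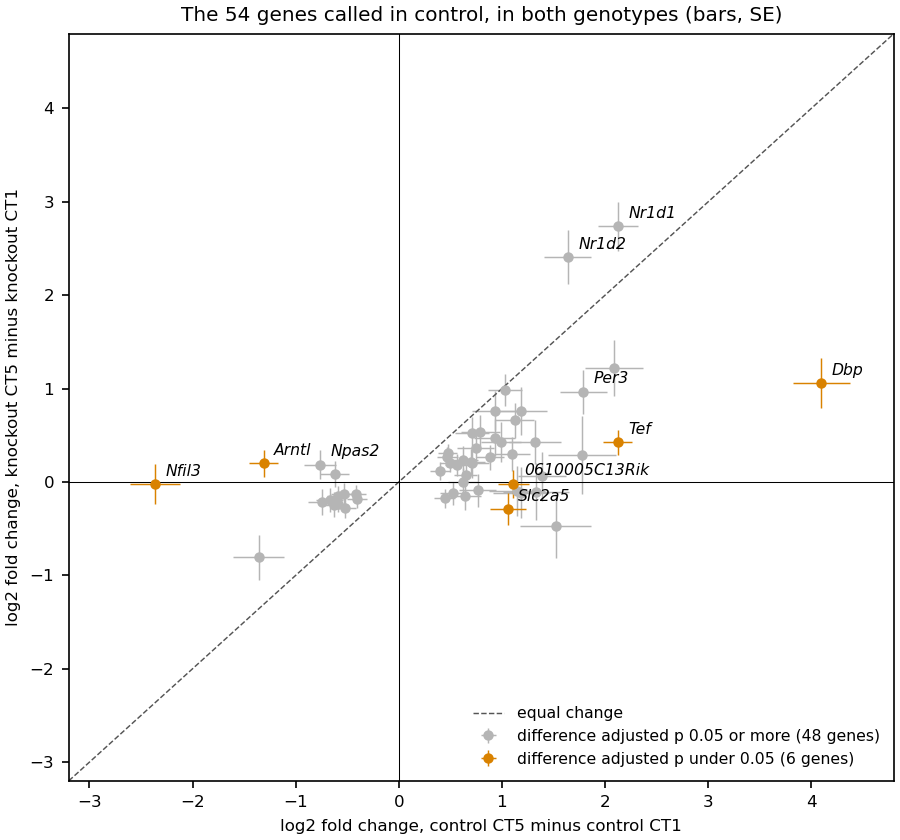
Log2 fold change, CT5 minus CT1, in knockout (vertical axis) and in control (horizontal axis) for the 54 genes called in control, with bars of 1 SE, and a dashed line where both changes are equal. The 6 genes whose difference between genotypes passed are orange, with Nfil3 and Arntl near 0 in knockout and below 0 in control, and Nr1d1 and Nr1d2 lie above the dashed line.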

How the data were processed

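RNA of mouse jejunum was sequenced by the submitters, who per the labels' protocols used a NucleoSpin RNA kit and the TruSeq Stranded mRNA kit. The deposited values are whole-number counts of reads for each gene, without normalization by the authors. Per the submitters' processing notes, mm10 was the genome, STAR 2.7.5c and featureCounts 1.4.6 were used beside SAMtools 1.3.1, Trimmomatic 0.39 and FastQC 0.11.5, and DESeq2 1.22.0 is also listed. Not given in the sources used here are their settings, the annotation, whether counting used strand, and how reads with several matches were treated, so values of overlapping genes and of near-identical copies are uncertain. Symbols and coordinates came from GENCODE M21 on mm10 (54349 of 55401 IDs matched with their version, 792 without it, 260 not at all).

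From the counts, genes were filtered with filterByExpr (minimum count 10, minimum total 15), scaled by TMM and fitted with edgeR 4.0.16 in R 4.3.3, with robust quasi-likelihood and 1 mean for each group, over all 47 libraries (35 residual degrees of freedom). The contrasts were control CT5 minus control CT1, knockout CT5 minus knockout CT1, and the second of these less the first. Adjusted p-values are Benjamini-Hochberg values over 15646 genes, with a threshold of 0.05. CPM were computed on the scaled library sizes. The scripts were tested on simulated data. Groups were read from the labels, and replicate numbers follow accession order and pair nothing. No 2 of the libraries compared agreed within sampling noise: over the 12 pairs within control CT5 and control CT1, chi-square per degree of freedom was 3.93 to 9.50. A library was said to stand apart at an interquartile range of 0.5 or more in relative log expression.

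Alternatives were RLE and upper quartile scaling, no filter, DESeq2 1.42.0, limma-voom (limma 3.58.1), fits of fewer libraries, and leaving out each library. The rule for named genes took every member of 5 clock lists. It took the 10 largest rises and 10 largest falls among called protein-coding genes whose libraries did not overlap and whose mean reached 5 CPM in a group. It added the 5 most abundant genes past 1.5-fold in each direction, up to 4 members of each other list with the smallest adjusted p, and the 10 called genes with the smallest adjusted p for the difference between genotypes. Other called genes were named beyond this rule. Some genes that the rule or the calls hold are not reported here, while the counts and list summaries include them. The comparison, the 41 lists (507 genes, 24 not measured) and the tests were chosen with earlier results of these data known. Genes named only from the fit without the 5 libraries were chosen after their values were seen.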

Additional observations from a re-analysis of the deposited data

Results flagged for a closer look

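Within the groups of 4 libraries, 128 groups (64 genes at both times) were searched for a library far from the other 3, and 6 were found, while chance alone marks about 1 group in 20. At CT5, Ccdc116 had a highest library of 27.3 CPM with the next at 23.2 CPM and Mycl a lowest library of 10.9 CPM with the next at 17.1 CPM. At CT1, Slc5a1 had a highest library of 1651 CPM with the next at 1435 CPM, Pacsin2 a highest of 125 CPM with the next at 117 CPM, Atp1b1 a lowest of 795 CPM with the next at 848 CPM, and Qrsl1 a lowest of 17.0 CPM with the next at 19.8 CPM.

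The change from CT1 to CT5 differed between the genotypes by the test of the difference itself in 10 genes (knockout minus control, log2 scale). It was lower in knockout for Dbp (−3.04), Plut (−2.11), Tef (−1.70), Slc2a5 (−1.35) and 0610005C13Rik (−1.13), and higher for Rbm20 (2.45), Nfil3 (2.34), Carf (2.01), Arntl (1.51) and Asxl1 (0.90). Of these, Carf averaged 7.62 ± 1.74 CPM at knockout CT5 and 3.66 ± 0.206 CPM at knockout CT1, and 4.25 ± 0.998 CPM at control CT5 and 8.25 ± 0.312 CPM at control CT1 (SD, n = 4 each). Asxl1, a gene of chromatin regulation, averaged 63.8 ± 1.88 CPM at knockout CT5 and 42.7 ± 7.86 CPM at knockout CT1, and 56.2 ± 7.04 CPM at control CT5 and 70.4 ± 2.22 CPM at control CT1. Of the 4 knockout CT1 libraries, 3 stand apart. Without the 5 libraries that stand apart, 4 of the 10 differences passed (Tef, Arntl, Nfil3 and 0610005C13Rik), while Carf (2.05, edgeR adjusted p = 0.302), Rbm20 (2.53, 0.491), Plut (−1.76, 0.466), Asxl1 (0.70, 0.237), Dbp (−2.80, 0.135) and Slc2a5 (−0.90, 0.216) kept their sign and did not pass.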

How the results depend on the processing

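The 54 calls between control CT5 and control CT1 became 92 with DESeq2, 192 with the 8 libraries alone, 200 without the 5 libraries that stand apart and 27 to 46 on leaving out single libraries. They stayed within 1.5 times under RLE (52) and upper quartile scaling (60), without the filter (39), with limma-voom (56) and with the control libraries of all times (73). The 43 calls of at least 1.5-fold became 88 with the 8 libraries, 84 without the 5, and 22 to 40 on leaving out single libraries. Of the 54 genes 0 changed direction in the 16 alternatives, 19 passed in all 16 and 21 passed in every fit without 1 library. The 2264 knockout calls became 1296 without the filter, 1 without the 5 libraries and 978 to 3962 on leaving out single libraries. The 10 differences between genotypes became 104 with DESeq2, 16 with the 16 libraries of CT5 and CT1, 4 without the 5, and 6 to 621 on leaving out single libraries, with 621 without knockout CT1 replicate 4, which leaves only libraries that stand apart in that group. The cause of these shifts was not tested.

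Some clock genes that did not pass changed sign in at least 1 alternative. Over all alternatives that tested them, Bhlhe41 ranged from −0.27 to 0.54, Ciart from −0.023 to 0.47, Cry1 from −0.49 to 0.013, Cry2 from −0.10 to 0.13, Csnk1d from −0.056 to 0.047 and Csnk1e from −0.0089 to 0.16. No paired analysis was possible because replicate numbers were given in accession order and the labels carry none. With 4 libraries a group, differences smaller than those called were not excluded, and genes near the floor of 3 counts, such as Ciart and Bhlhe41, could not be resolved at this depth.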

Other observations

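The fit without the 5 libraries that stand apart called 146 further genes between control CT5 and control CT1, 87 higher and 59 lower, of which 89 also passed in the fit of these 8 libraries alone. The genes below were picked after their values were seen, so their grouping is not tested. Among the 59 were genes of chromosome segregation and DNA replication. The spindle gene Aspm averaged 15.03 ± 4.0 CPM at CT5 and 25.7 ± 2.66 CPM at CT1 (−0.77, SE 0.17, edgeR adjusted p = 0.0120). The kinesin gene Kif20b averaged 19.2 ± 2.81 CPM at CT5 and 32.2 ± 3.54 CPM at CT1 (−0.75, SE 0.16, edgeR adjusted p = 0.00724), and Rrm1, of the enzyme that makes deoxyribonucleotides, 53.0 ± 7.26 CPM and 73.3 ± 5.23 CPM (−0.46, SE 0.11, edgeR adjusted p = 0.0165). Rad54l, a gene of DNA repair, averaged 10.001 ± 1.92 CPM at CT5 and 16.5 ± 1.46 CPM at CT1 (−0.71, SE 0.17, edgeR adjusted p = 0.0214). With all libraries in the fit, none of these 4 passed (edgeR adjusted p = 0.0884 to 0.341).

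Among the 87 were genes of the brush border and its actin core. The peptidase gene Ace averaged 2536 ± 340 CPM at CT5 and 1603 ± 100 CPM at CT1 (0.67, SE 0.14, edgeR adjusted p = 0.00802). Slc9a3r1, a scaffold that binds ezrin, averaged 844 ± 160 CPM at CT5 and 594 ± 107 CPM at CT1 (0.52, SE 0.13, edgeR adjusted p = 0.0297). The microvillar motor genes Myo7b (651 ± 39.0 CPM and 504 ± 35.1 CPM, 0.37, edgeR adjusted p = 0.0333) and Myo1a (1690 ± 40.7 CPM and 1396 ± 100 CPM, 0.28, edgeR adjusted p = 0.0495) had smaller changes. The focal adhesion gene Zyx, whose locus overlaps that of Epha1, averaged 129 ± 23.0 CPM at CT5 and 82.8 ± 11.9 CPM at CT1 (0.65, SE 0.12, edgeR adjusted p = 9.42e-04), and the mineralocorticoid receptor gene Nr3c2 55.1 ± 3.67 CPM and 35.4 ± 0.794 CPM (0.64, SE 0.13, edgeR adjusted p = 0.00232). With all libraries these 6 had edgeR adjusted p-values of 0.0577 to 0.652.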
